A study of Mus musculus with 2 samples.

Results

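The D cyclins Ccnd1, Ccnd2 and Ccnd3, the CDK inhibitors Cdkn1a, Cdkn1b, Cdkn1c and Cdkn2c, and the transcription factor Myc were followed across the cell classes of mouse skin tumors. These 8 genes were taken by symbol from the 32285 genes of the deposited tables, and all 8 had unique molecular identifiers (UMIs, counts of captured RNA molecules) in every one of the 4 cell classes described. The tumors came from B16F10-OVALBUMIN/VEGFC, a melanoma line that carries the model antigen ovalbumin and the lymphatic growth factor VEGF-C, of which 500K cells were put into the skin. They grew for 15 days in Ifngr1iProx1 (Cre plus) mice or in Ifngr1WT (Cre minus) mice, the first a genotype whose name points to Prox1-driven Cre and the interferon-γ receptor gene Ifngr1. From each genotype 3 tumors were pooled, and cells negative for DAPI and CD45 and positive for CD31 were sorted into 1 single-cell 3′ library. The labels used here give no age or sex and no treatment with an agent. With 1 library per genotype there are no replicates and no test, and every 95% interval in brackets covers counting error only, not differences between animals, tumors or sorts.

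D cyclins bind CDK4 and CDK6 and turn them on, and the active kinases phosphorylate the retinoblastoma protein Rb, which frees E2F factors to switch on genes of DNA replication. Cdkn1a (p21), Cdkn1b (p27) and Cdkn1c (p57) are Cip/Kip inhibitors that act mainly on CDK2 complexes, while Cdkn2c (p18) is an INK4 inhibitor that binds CDK4 and CDK6. Myc drives ribosome production and cell growth, D cyclin genes answer to growth factor signals such as VEGF in endothelium, and p53 acts through Cdkn1a.

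Upstream sequence is shown for Cdkn1a and Cdkn2c, since Cdkn1a is set beside p53-linked genes and Cdkn2c beside cycling barcodes further on. Cdkn1a has several annotated starts, and the RefSeq window of 250 bases before one of them, on the plus strand of build GRCm38.p6 at chr17:29090729-29090978, holds a pair of p53 half-site cores. It is printed 5′ to 3′ with that motif in capitals.
Cdkn1a upstream start: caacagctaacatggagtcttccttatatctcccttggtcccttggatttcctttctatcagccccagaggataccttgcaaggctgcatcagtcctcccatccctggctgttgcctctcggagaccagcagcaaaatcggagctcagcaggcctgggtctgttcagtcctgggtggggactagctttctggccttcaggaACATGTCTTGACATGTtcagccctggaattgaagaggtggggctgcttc
The motif searched, on both strands, was a pair of ACATGT runs with 4 bases of any kind between them. It begins 49 bases before the start and was found in 4 of 32851 promoter windows, or 0.0122%. A later Cdkn1a start, with its window at chr17:29093519-29093768 on the same strand, lacks that pair. It has TATAA on its own strand, in capitals, 25 bases before the start, while the upstream window holds TATAA on the opposite strand, not in capitals.
Cdkn1a downstream start: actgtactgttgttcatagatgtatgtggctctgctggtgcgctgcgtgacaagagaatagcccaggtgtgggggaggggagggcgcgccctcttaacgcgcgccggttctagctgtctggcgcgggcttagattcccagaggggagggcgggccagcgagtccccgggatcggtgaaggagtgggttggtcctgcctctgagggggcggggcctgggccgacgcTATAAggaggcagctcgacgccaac
TATAA on either strand is common and stood in 22.8% of the windows. For Cdkn2c the window lies at chr4:109666757-109667006 on the minus strand, before a RefSeq start at 109666756. This start and the window lie inside the annotated span of the gene given further on, which runs to 109667189. The window holds the E2F core TTCCCGC, in capitals, 25 bases before that start.
Cdkn2c: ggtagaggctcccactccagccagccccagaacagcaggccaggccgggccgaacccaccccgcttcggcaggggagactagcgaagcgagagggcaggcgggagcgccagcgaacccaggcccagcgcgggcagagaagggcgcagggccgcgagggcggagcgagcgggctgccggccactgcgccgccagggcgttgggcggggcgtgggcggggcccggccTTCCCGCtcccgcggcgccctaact
That core was present, on either strand, in 3.82% of the windows. These matches are descriptions of letters, and no factor's binding was measured. The 3 motifs were chosen after the windows had been read, and windows were matched for 4 of the 8 genes (Cdkn1a, Cdkn1b, Cdkn2c and Ccnd3, 7 windows in all).

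The Cre plus library held 2491 barcodes with 66704257 UMIs and the Cre minus library 2502 barcodes with 76967583 UMIs, and 1 barcode sequence occurred in both. Barcodes were placed in a class when UMIs of at least 3 of its markers were present and that class held over 50% of the marker UMIs. This gave 749 lymphatic, 199 blood endothelial, 519 melanoma and 58 macrophage barcodes in Cre plus, against 198, 229, 877 and 75 in Cre minus. Levels are given in CPM, a gene's summed UMIs per 1000000 UMIs of the class and library. Prox1, Flt1 and Dct are markers of the gate, so their levels describe the classes and do not check them. Prox1 had 572 and 417 CPM in lymphatic barcodes of Cre plus and Cre minus. It had 2.42 and 0 CPM in blood endothelial barcodes, where Flt1 had 1761 and 2547 CPM. Pecam1, Cdh5, Tie1 and Egfl7 stood outside the gate. Summed, they had 2333 and 2339 CPM in lymphatic barcodes of Cre plus and Cre minus, and 4021 and 4186 CPM in blood endothelial barcodes. Melanoma barcodes had 86.5 and 69.6 CPM of them and macrophage barcodes 414 and 130 CPM. Melanoma barcodes are not the labelled cell type, endothelium, and had Pecam1 (CD31) at 6.82 and 3.53 CPM and Dct, a pigment enzyme, at 8935 and 10432 CPM. Macrophage barcodes were mixed, with summed lymphatic markers at 1358 CPM in Cre plus against 378 CPM in Cre minus, and summed melanoma markers at 58.0 CPM in Cre plus against 1497 CPM in Cre minus. Ifngr1 itself was at 29.3 CPM in Cre plus against 48.0 CPM in Cre minus lymphatic barcodes, a log2 ratio of −0.71 [−1.03, −0.38], although a 3′ tag can lie outside the part that is removed.

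Depth and RNA content also moved with the genotype in the lymphatic class. Median UMIs per lymphatic barcode were 16514 in Cre plus against 6285 in Cre minus, and barcodes called Malat1-rich, in which this nuclear RNA gave 0.1% of UMIs or more, made up 57.8% and 19.2%. The corresponding medians were 14827 and 10330 in blood endothelial, 18532 and 18058 in melanoma, and 30627 and 24430 in macrophage barcodes. A UMI marks 1 captured 3′ end, so no length scaling was applied, and levels of different genes also depend on how well each 3′ end is captured.

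The most abundant D cyclin transcript differed by cell class. Ccnd1, on mm10 chromosome 7 from 144929931 to 144939925 (minus strand), was at 150 CPM [145, 156] in Cre plus against 204 CPM [184, 225] in Cre minus lymphatic barcodes. In blood endothelial barcodes it reached 603 CPM [581, 626] in Cre plus against 695 CPM [667, 725] in Cre minus, the highest level of any of the 8 genes in any class. Melanoma barcodes had 106 and 114 CPM and macrophage barcodes 123 and 127 CPM of Ccnd1 in Cre plus and Cre minus. Blood endothelium therefore stood first and lymphatic endothelium second for Ccnd1 in both libraries, while macrophage and melanoma barcodes of Cre minus did not differ beyond counting error.

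Ccnd2 (chromosome 6, 127125162 to 127152193, minus strand) had the opposite order within endothelium. It was at 273 CPM [265, 281] in Cre plus against 433 CPM [405, 463] in Cre minus lymphatic barcodes, and at 30.5 CPM [25.7, 36.1] in Cre plus against 30.3 CPM [24.5, 36.9] in Cre minus blood endothelial barcodes. Melanoma barcodes stood between, at 228 and 267 CPM in Cre plus and Cre minus, followed by macrophage barcodes at 107 and 75.0 CPM. The order lymphatic, melanoma, macrophage, blood endothelial was the same in both libraries, with each neighbour apart beyond counting error.

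Ccnd3 (chromosome 17, 47505051 to 47599691, plus strand) was the most even of the D cyclins. It had 52.9 CPM in Cre plus against 35.9 CPM in Cre minus lymphatic barcodes, and 115 and 97.7 CPM in blood endothelial barcodes. Melanoma barcodes had 72.7 and 75.1 CPM and macrophage barcodes 99.1 and 89.1 CPM. Lymphatic barcodes were lowest for Ccnd3 in both libraries, and blood endothelial and macrophage barcodes did not differ beyond counting error.

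**Figure D1:**
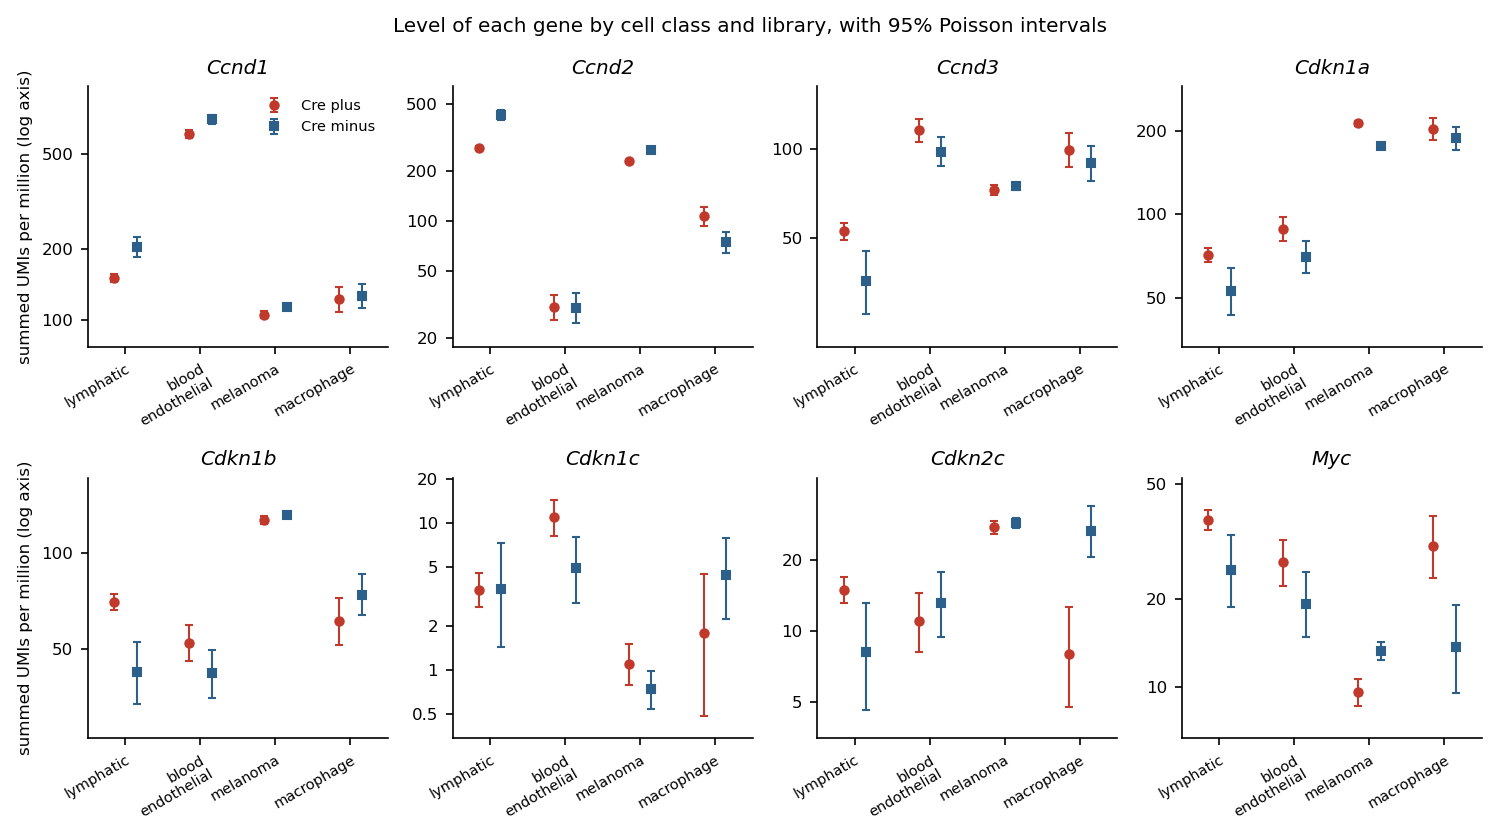
Level of each of the 8 genes (CPM, log axis, a different range in each panel) by cell class, with Cre plus as red circles and Cre minus as blue squares and 95% Poisson intervals. Ccnd1 is highest in blood endothelial barcodes (603 and 695 CPM) and Ccnd2 lowest there (30.5 and 30.3 CPM), while Cdkn1c is at or below 11.0 CPM in every class.

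As a share of all D cyclin UMIs, Ccnd2 made up 57.3% [56.2, 58.4] in Cre plus and 64.4% [61.7, 67.0] in Cre minus lymphatic barcodes, by exact Clopper-Pearson intervals. In blood endothelial barcodes Ccnd2 made up 4.08% and 3.68%, and Ccnd1 80.6% [79.2, 81.9] and 84.5% [83.0, 85.8]. Melanoma barcodes had a make-up close to the lymphatic one, with Ccnd2 at 56.0% and 58.5% and Ccnd1 at 26.1% and 25.0% in Cre plus and Cre minus. Macrophage barcodes held the 3 genes in more equal parts, with Ccnd1 at 37.4% and 43.6%, Ccnd2 at 32.4% and 25.8% and Ccnd3 at 30.1% and 30.7%. The summed D cyclin level was 476 CPM [466, 487] in Cre plus against 673 CPM [637, 710] in Cre minus lymphatic barcodes, and 749 and 823 CPM in blood endothelial barcodes.

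**Figure D2:**
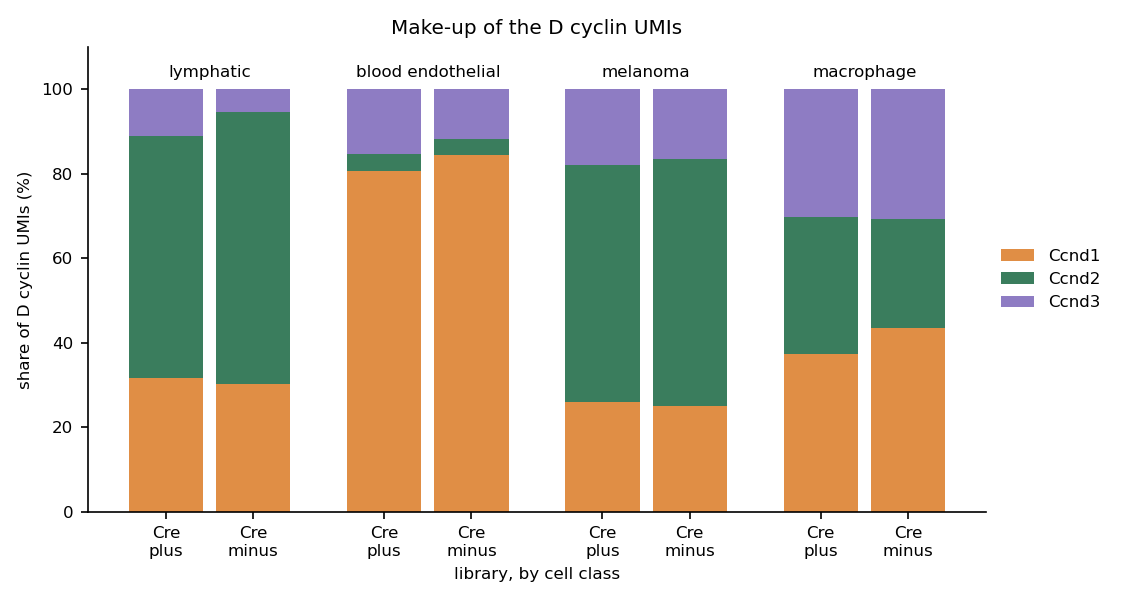
Share of the summed Ccnd1, Ccnd2 and Ccnd3 UMIs (%) held by each gene, in the Cre plus (left) and Cre minus (right) library of each cell class. Ccnd2 holds 57.3% and 64.4% in lymphatic barcodes and 4.08% and 3.68% in blood endothelial barcodes.

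The split was also visible in single barcodes. At full depth a UMI of both Ccnd1 and Ccnd2 was found in 55.5% of Cre plus and 53% of Cre minus lymphatic barcodes, against 17.1% and 21% of blood endothelial barcodes. Barcodes with Ccnd1 alone made up 8.01% and 7.58% of lymphatic and 62.8% and 68.1% of blood endothelial barcodes, while Ccnd2 alone was found in 23.2% and 24.7% of lymphatic and 1.51% and 1.75% of blood endothelial barcodes. These shares depend on depth. After thinning each barcode to 2000 UMIs, Ccnd1 alone was found, as a mean over 20 random draws, in 12.3% of 713 Cre plus and 12.7% of 194 Cre minus lymphatic barcodes, and in 56.1% of 181 and 55.4% of 223 blood endothelial barcodes. Ccnd2 alone was found after thinning in 27.9% and 28.7% of lymphatic and 1.66% and 2.09% of blood endothelial barcodes. Both genes were found after thinning in 8.56% to 12.5% of Cre plus against 16.0% to 24.2% of Cre minus lymphatic barcodes over the 20 draws. In blood endothelial barcodes the means were 1.80% against 6.88%, so the share was lower in Cre plus in both classes. The ranges cover the random draws only, not counting error.

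Free RNA sets a floor under such shares. Red cell barcodes, with over 50% haemoglobin UMIs, held 2 Ccnd1 and 2 Ccnd2 UMIs in 234 Cre plus barcodes and 0 and 5 in 223 Cre minus barcodes, while the melanoma gene Dct had 126 and 105 UMIs in them. Per 1000000 UMIs other than haemoglobin, the exact Poisson interval for Ccnd2 there was [2.42, 72.1] in Cre plus, and in Cre minus its level was 44.0 with a lower bound of 14.3. Both blood endothelial Ccnd2 levels, 30.5 CPM in Cre plus against 30.3 CPM in Cre minus, lie within these red cell intervals. Those blood endothelial levels rest on 139 UMIs from 199 barcodes (Cre plus) and 97 UMIs from 229 barcodes (Cre minus). Red cell barcodes held 100151 (Cre plus) and 113672 (Cre minus) UMIs other than haemoglobin, against 4550213 and 3204796 UMIs in the blood endothelial class. Whether the blood endothelial Ccnd2 UMIs are free RNA was not tested. For Ccnd1 the upper bounds there are 72.1 in Cre plus and 32.5 in Cre minus, below its level in each of the 4 classes. Cdkn2a, which the B16 line is known to have lost, had a UMI in 0.578% of 519 Cre plus and 0.228% of 877 Cre minus melanoma barcodes, against 21.6% of Cre plus and 15.2% of Cre minus lymphatic barcodes.

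The direct comparison of lymphatic with blood endothelial barcodes asked which of the 8 genes separate both kinds of endothelium within each library. A gene was called when it had at least 50 summed UMIs and its ratio was past 1.5-fold, which 34.7% of 11664 genes were in Cre plus, against 40.1% of 8730 in Cre minus. Of the 8 genes in Cre plus 1 was higher and 3 were lower in lymphatic barcodes, and of the 7 with enough UMIs in Cre minus 1 was higher and 3 were lower. Their median log2 ratio was 0.06 in Cre plus and −0.40 in Cre minus, beside 0.13 and −0.17 over all genes tested. In both libraries Ccnd2 and Ccnd1 had the ratios farthest from 0 among the members measured.

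Ccnd2 was 8.92-fold higher in lymphatic than in blood endothelial barcodes of Cre plus, a log2 ratio of 3.16 [2.91, 3.41], and 14.3-fold higher in Cre minus, a log2 ratio of 3.84 [3.54, 4.16]. For Ccnd1 the log2 ratio was −2.0 [−2.08, −1.92] in Cre plus and −1.77 [−1.93, −1.62] in Cre minus. Ccnd3 went the same way as Ccnd1, at −1.12 [−1.28, −0.96] and −1.44 [−1.84, −1.07]. All 3 kept their direction within Malat1-rich and within Malat1-poor barcodes of both libraries, where Ccnd2 ran between 3.07 and 4.12 (the last against 6 blood endothelial UMIs) and Ccnd1 between −2.28 and −2.02. Thinned to 2000 UMIs per barcode, Ccnd3 in Cre plus was at −0.45, under 1.5-fold.

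Outside the D cyclins the endothelial ratios were closer to 0 than those of Ccnd1 and Ccnd2. Cdkn1c, an imprinted Cip/Kip gene, was lower in lymphatic barcodes of Cre plus, with 3.53 CPM against 11.0 CPM in blood endothelial barcodes, a log2 ratio of −1.64 [−2.21, −1.06]. In Cre minus it rested on 7 lymphatic and 16 blood endothelial UMIs, and among Malat1-poor barcodes of Cre plus on 12 and 1 UMIs with a ratio of 0.54 [−2.22, 5.95]. Pericyte and fibroblast markers, which mark cells with 28.3 and 9.45 CPM of Cdkn1c, summed to 276 CPM in Cre plus against 6.86 CPM in Cre minus blood endothelial barcodes, and their part in the Cdkn1c level was not tested. Cdkn2c was called lower in Cre minus at −0.70 [−1.63, 0.16], with 16 lymphatic and 42 blood endothelial UMIs, an interval that includes 0. Cdkn1a, Cdkn1b and Myc were under 1.5-fold over all barcodes of both libraries, but Cdkn1a and Myc were not so in every subset. Cdkn1a was at −1.52 [−1.95, −1.07] in Cre plus and −0.95 [−1.43, −0.48] in Cre minus among Malat1-poor barcodes. Myc in Cre minus was at 1.33 [0.67, 1.97] among Malat1-rich and at −1.33 [−2.59, −0.11] among Malat1-poor barcodes, the last from 11 and 15 UMIs. Without cycling barcodes Myc was at 1.17 in Cre plus and 0.84 in Cre minus.

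Cdk6, a kinase that D cyclins activate, was higher in lymphatic than in blood endothelial barcodes, as Ccnd2 was, but low in melanoma barcodes (14.5 CPM in Cre plus against 12.3 CPM in Cre minus). It was at 242 CPM in Cre plus against 222 CPM in Cre minus lymphatic barcodes and at 38.5 and 45.9 CPM in blood endothelial barcodes, log2 ratios of 2.65 [2.44, 2.88] and 2.27 [2.0, 2.55]. Rb1, the Rb protein that these kinases phosphorylate, was lower in lymphatic barcodes, with 30.6 CPM against 78.5 CPM in blood endothelial barcodes of Cre plus and 15.7 CPM against 66.5 CPM in those of Cre minus. Of the 10 listed partner kinases, pocket proteins and E2F factors, 2 of 10 measured were higher and 1 lower in Cre plus, and 2 of 9 were higher and 4 lower in Cre minus. Background shares past 1.5-fold were 21.2% higher and 13.5% lower in Cre plus, and 13.7% higher and 26.3% lower in Cre minus. Cdk4 was called in Cre minus at 0.70 [0.50, 0.91], with 194 CPM in lymphatic and 119 CPM in blood endothelial barcodes.

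**Figure D3:**
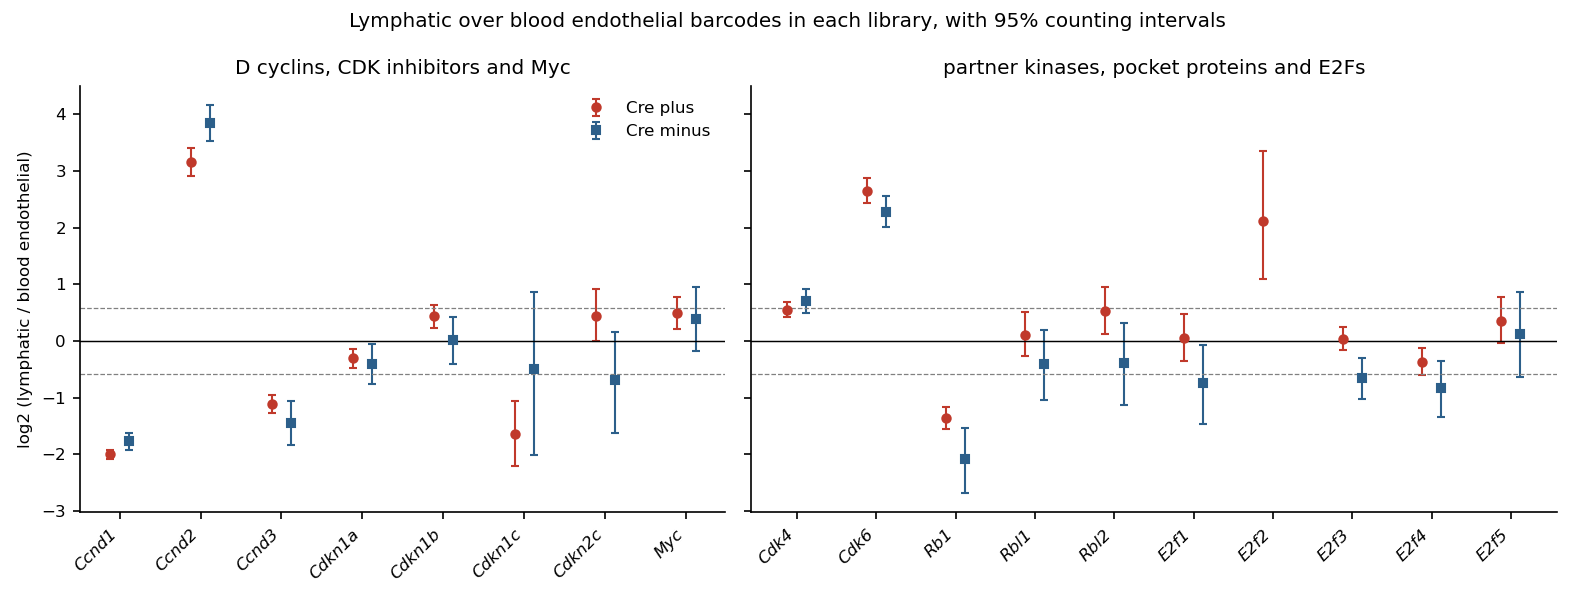
Log2 ratio of lymphatic over blood endothelial barcodes for the 8 genes (left) and for the listed partners of the D cyclins (right), Cre plus as red circles and Cre minus as blue squares, with 95% counting intervals and dashed lines at 1.5-fold. Ccnd2 (3.16 and 3.84) and Cdk6 (2.65 and 2.27) lie far above 0, and Ccnd1 (−2.0 and −1.77) far below. Partners with under 50 UMIs are not drawn.

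Cdkn1a (chromosome 17, 29090976 to 29100727, plus strand) was the most abundant of the inhibitors in melanoma and macrophage barcodes. It had 71.5 CPM in Cre plus against 53.1 CPM in Cre minus lymphatic barcodes, and 88.3 and 70.2 CPM in blood endothelial barcodes. Melanoma barcodes had 212 and 176 CPM, and macrophage barcodes 203 and 188 CPM, so both endothelial classes were below both other classes in each library. Its UMIs were unevenly spread: the 10 barcodes with the most held 29.1% of the Cdkn1a UMIs of 749 Cre plus lymphatic barcodes, against 8.61% for Ccnd2.

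Cdkn1b (chromosome 6, 134920401 to 134925513, plus strand) was highest in melanoma barcodes. It had 70.6 CPM in Cre plus against 42.5 CPM in Cre minus lymphatic barcodes, 52.3 and 42.1 CPM in blood endothelial barcodes, 127 and 131 CPM in melanoma barcodes and 61.5 and 74.2 CPM in macrophage barcodes. The orders below melanoma differed between the libraries, and lymphatic barcodes were next in Cre plus and below macrophage barcodes in Cre minus.

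Cdkn1c (chromosome 7, 143458339 to 143461050, minus strand) was scarce throughout. It had 3.53 CPM in Cre plus against 3.54 CPM in Cre minus lymphatic barcodes, 11.0 and 4.99 CPM in blood endothelial, 1.10 and 0.735 CPM in melanoma and 1.77 and 4.44 CPM in macrophage barcodes. Between 4 and 59 UMIs lie behind each of these values.

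Cdkn2c (chromosome 4, 109660876 to 109667189, minus strand) was highest in melanoma barcodes, at 27.6 CPM in Cre plus against 28.8 CPM in Cre minus. Lymphatic barcodes had 14.9 and 8.09 CPM, blood endothelial barcodes 11.0 and 13.1 CPM, and macrophage barcodes 7.96 and 26.6 CPM of it. In Cre minus the melanoma and macrophage levels did not differ beyond counting error. Only 2 of these values rest on fewer than 20 UMIs, the 16 of Cre minus lymphatic and the 18 of Cre plus macrophage barcodes.

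The other INK4 genes had a different distribution. Cdkn2a, which encodes p16 and p19Arf, was at 22.0 and 30.3 CPM in Cre plus and Cre minus lymphatic barcodes and 22.9 and 16.8 CPM in blood endothelial barcodes, but had 5 and 2 UMIs in all melanoma barcodes. Cdkn2b (p15) had 24.4 and 24.3 CPM in lymphatic barcodes and 14 and 5 UMIs in melanoma barcodes. Cdkn2d (p19) was instead highest in melanoma barcodes, at 57.7 and 58.5 CPM. Melanoma barcodes thus carried Cdkn2c and Cdkn2d but almost no UMI of the pair Cdkn2a and Cdkn2b.

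Myc (chromosome 15, 61985391 to 61990374, plus strand) was lowest in melanoma barcodes. It had 37.5 CPM [34.6, 40.6] in Cre plus against 25.3 CPM [18.8, 33.3] in Cre minus lymphatic barcodes, and 26.8 and 19.3 CPM in blood endothelial barcodes. Melanoma barcodes had 9.57 CPM [8.60, 10.6] and 13.3 CPM [12.4, 14.2], and macrophage barcodes 30.5 and 13.7 CPM. In Cre plus the 3 non-melanoma classes stood above melanoma, while in Cre minus macrophage and melanoma barcodes did not differ beyond counting error. Its relatives were rarer: Mycn had 6.23 and 4.55 CPM in lymphatic and 14.7 and 13.4 CPM in blood endothelial barcodes, with 1 and 2 UMIs in all melanoma barcodes.

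The genotype comparison asked how the 8 genes differed between Cre plus and Cre minus within a class. In summed UMIs, fewer cells that use a gene and less of its RNA per cell cannot be told apart. In lymphatic barcodes 23.9% of 11234 genes were past 1.5-fold, 21.1% higher and 2.82% lower in Cre plus, and the median log2 ratio of all genes was 0.25. Of the 8 genes 2 were higher, 1 was lower and 5 were under 1.5-fold, with a median of 0.49.

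Ccnd2 was the one lower, at 273 CPM in Cre plus against 433 CPM in Cre minus, a log2 ratio of −0.67 [−0.77, −0.56]. Ccnd1 pointed the same way below the threshold, at −0.44 [−0.59, −0.28], and Ccnd3 the other way, at 0.56 [0.21, 0.93]. Summed, the D cyclins had 476 CPM in Cre plus against 673 CPM in Cre minus, a ratio of −0.50 [−0.58, −0.41]. Relative to the median shift of all genes, Ccnd2 was at −0.92 and Ccnd1 at −0.69. Which of the 8 genes passed 1.5-fold in lymphatic barcodes varied with the setting. Thinned to 2000 UMIs, Ccnd1 was at −0.70, Ccnd2 at −0.84, Ccnd3 at 1.48 and Cdkn1a at 0.01. As a mean over barcodes Ccnd1 (−0.70), Ccnd3 (0.66), Cdkn1c (−1.18) and Myc (0.97) also passed, and Cdkn2c (0.54) did not. Without cycling barcodes Ccnd1 was at −0.65.

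Cdkn1b was higher in Cre plus, at 70.6 CPM against 42.5 CPM in Cre minus, a log2 ratio of 0.73 [0.41, 1.07], and Cdkn2c at 14.9 CPM against 8.09 CPM, a ratio of 0.88 [0.15, 1.71]. After the median shift is taken off, Cdkn1b was at 0.48, under 1.5-fold, and Cdkn2c at 0.63. Cdkn1a (0.43 [0.14, 0.73]) and Myc (0.57 [0.15, 1.02]) were under 1.5-fold, and Cdkn1c had 59 and 7 UMIs and a ratio of −0.00 [−1.14, 1.37]. The 4 inhibitors together had 160 CPM in Cre plus against 107 CPM in Cre minus.

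These lymphatic ratios varied with the Malat1 content of the barcodes, whose part in the genotype difference was not tested. Among Malat1-rich barcodes (433 in Cre plus, 38 in Cre minus), where 29.6% of genes were past 1.5-fold, Ccnd2 was at −0.22 [−0.40, −0.04] and Ccnd1 at 0.24 [−0.04, 0.53]. Among Malat1-poor barcodes (316 and 160), where 21.3% of genes were past 1.5-fold, Ccnd2 was at −0.74 [−0.89, −0.59] and Ccnd1 at −0.65 [−0.87, −0.44]. Before any median shift is taken off, Ccnd2 was thus lower in Cre plus in both, while the sign of Ccnd1 differed. The median log2 ratio of all genes was −0.098 in the Malat1-rich set, which lies inside the Ccnd2 interval there. In the Malat1-poor set this median was 0.16, above the Ccnd2 interval.

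The other genes split as well. Cdkn1a was at 1.07 [0.54, 1.64] among Malat1-rich barcodes, with 73.0 CPM in Cre plus against 34.9 CPM in Cre minus, and at −0.08 [−0.48, 0.33] among Malat1-poor barcodes, with 63.5 and 67.1 CPM. Cdkn1b was at 0.68 [0.23, 1.18] and 0.32 [−0.18, 0.85], and Cdkn2c at 1.06 [−0.08, 2.53] and 0.88 [−0.12, 2.04]. Myc was at −0.15 [−0.62, 0.36] among Malat1-rich but 1.06 [0.12, 2.14] among Malat1-poor barcodes, the last from 56 and 11 UMIs. Within each library Myc was higher in Malat1-rich than in Malat1-poor lymphatic barcodes, with 40.8 against 20.6 CPM in Cre plus and 45.3 against 9.84 CPM in Cre minus.

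**Figure D4:**
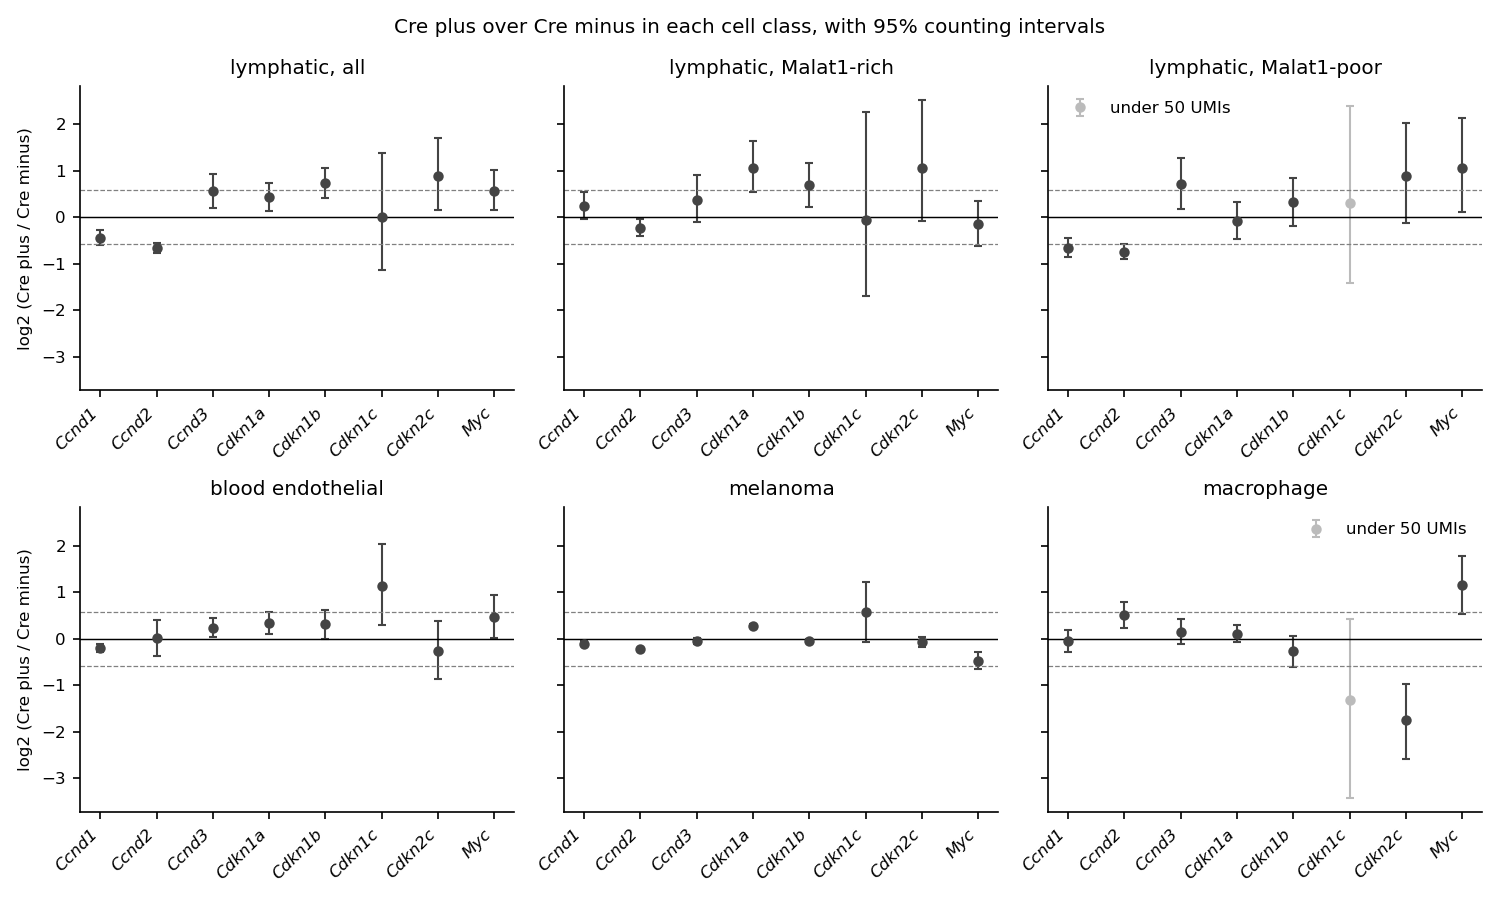
Log2 ratio of Cre plus over Cre minus for the 8 genes in all, Malat1-rich and Malat1-poor lymphatic barcodes and in the other 3 classes, with 95% counting intervals, dashed lines at 1.5-fold and grey points for fewer than 50 UMIs. Ccnd2 is below 0 in all 3 lymphatic panels (−0.67, −0.22 and −0.74), and no gene passes 1.5-fold over all melanoma barcodes.

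Among the listed neighbours of these genes in lymphatic barcodes, where 21.1% of all genes were past 1.5-fold higher and 2.82% lower, none was past 1.5-fold lower. Of 10 D cyclin partners 3 were higher, among them Rb1 at 0.96 [0.44, 1.54], of 7 genes of the cyclin E, cyclin A and CDK2 arm 3 were higher, among them Skp2, which targets Cdkn1b for degradation, at 1.60 [0.74, 2.62], and of 3 other CDK inhibitors 1, Cdkn2d, at 0.81 [0.10, 1.61]. Of 9 measured genes of the Myc network 4 were higher, including the Myc partner Max at 0.66 [0.31, 1.03], while of 10 Myc-linked ribosome and metabolism genes 1 was. Of 13 p53-linked genes 7 were higher, including Btg2 (0.87 [0.57, 1.18]), Plk2 (0.77 [0.49, 1.06]) and Phlda3 (0.62 [0.29, 0.97]), with a list median of 0.61. Of 12 mitosis genes 9 were higher, with a median of 0.81, and of 12 replication genes 2.

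In blood endothelial barcodes Ccnd1 was at −0.20 [−0.29, −0.12] and Ccnd3 at 0.23 [0.03, 0.44]. Ccnd2 was at 0.01 [−0.37, 0.40], but 1 Cre plus barcode held 51 of the 139 Ccnd2 UMIs there, and the ratio was −0.54 without it. It was also lower in Cre plus with a gate of over 80% (−0.66), without cycling barcodes (−0.97, from 51 and 82 UMIs), as a mean over barcodes (−1.34), thinned to 2000 UMIs (−1.85) and in Malat1-poor barcodes (−1.66, from 6 and 35 UMIs), while in Malat1-rich barcodes it was at 0.40 [−0.04, 0.86]. Of the 8 genes 1, Cdkn1c, was past 1.5-fold, as were 11.5% of 9603 genes (6.47% higher and 5.01% lower). Cdkn1c had 11.0 CPM in Cre plus against 4.99 CPM in Cre minus, from 50 and 16 UMIs, a ratio of 1.14 [0.30, 2.05], in the class where pericyte markers also differed. Cdkn1a was at 0.33 [0.09, 0.57], Cdkn1b at 0.31 [0.00, 0.63], Cdkn2c at −0.25 [−0.88, 0.37] and Myc at 0.47 [0.02, 0.94].

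Melanoma barcodes had the most UMIs and the lowest share of genes past 1.5-fold, 5.93% of 13570. None of the 8 genes was among them over all melanoma barcodes, but among Malat1-poor ones Myc was at −0.71, past 1.5-fold. Cdkn1a was at 0.27 [0.23, 0.31] and Myc at −0.47 [−0.66, −0.29], with 9.57 CPM in Cre plus against 13.3 CPM in Cre minus. Ccnd1, Ccnd2, Ccnd3, Cdkn1b and Cdkn2c lay between −0.23 and −0.05, and Cdkn1c at 0.58 [−0.07, 1.22] from 41 and 45 UMIs. Some of these moved with the setting. Without cycling barcodes Ccnd1 was at 0.33, and thinned to 2000 UMIs Cdkn1b was at 0.35 and Cdkn2c at −0.54.

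In macrophage barcodes 2 of the 7 genes with enough UMIs were past 1.5-fold, beside 18.4% of 8603 genes (10.7% higher and 7.71% lower). Myc was higher in Cre plus, at 30.5 CPM against 13.7 CPM in Cre minus, a ratio of 1.15 [0.54, 1.79], and Cdkn2c lower, at 7.96 CPM against 26.6 CPM, a ratio of −1.74 [−2.58, −0.97]. One Cre minus barcode held 21 of the 66 Cdkn2c UMIs, and without the barcode richest in Cdkn2c the ratio was −1.22. Mitosis genes moved with Cdkn2c in this class, with 7 of 11 measured past 1.5-fold lower in Cre plus, and melanoma markers were at 58.0 CPM in Cre plus against 1497 CPM in Cre minus. The part of these cells in the macrophage values was not tested, and with a stricter gate of over 80% the ratio of Cdkn2c was −1.81. Ccnd2 was under 1.5-fold over all macrophage barcodes, at 107 CPM in Cre plus against 75.0 CPM in Cre minus. It passed 1.5-fold with that gate (0.81), as a mean over barcodes (0.82) and without its richest barcode (0.76). It was at 1.87 thinned to 2000 UMIs and 1.81 without cycling barcodes. Other genes moved too, with Ccnd1 at 0.73 thinned, Ccnd3 at −0.64 without cycling barcodes and Cdkn1b at −0.86 as a mean over barcodes.

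The last comparison set barcodes with UMIs of at least 3 of 12 mitosis genes, called cycling, against the other barcodes of the same class and library, so those 12 genes define the split. Cycling barcodes made up 30.4% of Cre plus and 18.2% of Cre minus lymphatic barcodes, 22.6% and 18.8% of blood endothelial, 52.6% and 51.4% of melanoma and 27.6% and 25.3% of macrophage barcodes. They were deeper, with medians of 30193.5 UMIs against 12781 in other lymphatic barcodes of Cre plus and 9500.5 against 5756 in Cre minus. In melanoma barcodes the medians were 91563 against 10394 in Cre plus and 46976 against 11095 in Cre minus. After thinning to 2000 UMIs, cycling barcodes made up 13.0% (12.1% to 14.6% over 20 draws) of Cre plus and 7.99% (6.19% to 10.3%) of Cre minus lymphatic barcodes. These ranges cover the random draws only. In 1 draw the exact intervals for counting error were [10.8, 15.9] for Cre plus and [3.62, 11.2] for Cre minus, which overlap. Thinned means in Cre plus and Cre minus were 9.48% and 10.7% in blood endothelial and 20.5% and 20.7% in melanoma barcodes. In macrophage barcodes they were 3.70% and 6.96%.

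Cdkn2c had a ratio above 0 in all 8 sets of class and library, with an interval that includes 0 in 2 of them (lymphatic barcodes of Cre minus and macrophage barcodes of Cre plus), and in 3 sets it had fewer than 50 UMIs. In lymphatic barcodes it had 27.0 CPM in cycling against 4.46 CPM in other barcodes of Cre plus, a log2 ratio of 2.60 [2.10, 3.12], and 14.2 against 5.65 CPM in Cre minus, where 8 and 8 UMIs gave 1.33 [−0.28, 2.95]. In blood endothelial barcodes it had 20.8 against 2.82 CPM in Cre plus and 33.5 against 1.47 CPM in Cre minus, ratios of 2.88 [1.71, 4.28] and 4.51 [2.85, 6.85], the last from 39 and 3 UMIs. Melanoma barcodes had 30.4 against 15.7 CPM in Cre plus and 32.6 against 15.7 CPM in Cre minus, ratios of 0.96 [0.67, 1.25] and 1.05 [0.84, 1.26]. Macrophage barcodes had ratios of 0.84 [−0.65, 2.38] in Cre plus, from 10 and 8 UMIs, and 1.72 [0.87, 2.66] in Cre minus, where it was 1.03 without the barcode richest in Cdkn2c. Among barcodes with at least 10000 UMIs, Cdkn2c was at 2.53 in lymphatic and 2.92 in blood endothelial barcodes of Cre plus.

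The genotype ratio of Cdkn2c in lymphatic barcodes had opposite signs in cycling and other barcodes. Among cycling lymphatic barcodes it had 27.0 CPM in Cre plus against 14.2 CPM in Cre minus (0.92 [−0.08, 2.15]), and among the other lymphatic barcodes 4.46 CPM in Cre plus against 5.65 CPM in Cre minus (−0.34 [−1.46, 0.97]). Ccnd2 and Cdkn1b kept their direction among the other barcodes, at −0.60 [−0.72, −0.48] and 0.78 [0.41, 1.18].

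Cycling and other lymphatic barcodes were also compared over all 8 genes. In Cre plus, where 15.1% of genes were past 1.5-fold (7.5% higher and 7.62% lower), 1 of the 8 genes was, and that was Cdkn2c. In Cre minus 23.8% of genes were (14% higher and 9.75% lower), and of the 6 with enough UMIs 1 was, Ccnd2, lower in cycling barcodes at 301 against 486 CPM (−0.69 [−0.94, −0.45]). In Cre plus Ccnd2 was at 217 CPM in cycling and 320 CPM in other barcodes (−0.56 [−0.65, −0.47]), so the D cyclin most abundant in lymphatic endothelium was lower in cycling barcodes of both libraries. Among barcodes with at least 10000 UMIs the Ccnd2 ratio was −0.43 in Cre plus and −0.15 in Cre minus, under 1.5-fold. Myc did not differ beyond counting error in lymphatic barcodes, at −0.13 [−0.37, 0.10] and −0.03 [−1.03, 0.90].

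Blood endothelial barcodes differed from lymphatic ones in Myc. It was higher in cycling barcodes of both libraries, at 38.1 against 17.3 CPM in Cre plus (1.14 [0.58, 1.71]) and 28.3 against 14.2 CPM in Cre minus (0.99 [0.23, 1.77]). In these barcodes 7 of 9 measured Myc-linked ribosome and metabolism genes were past 1.5-fold higher in Cre plus, as were 9 of 9 in Cre minus. Of the Myc network list 1 of 6 was higher and 2 lower in Cre plus, and 0 of 4 higher and 2 lower in Cre minus. In lymphatic barcodes, where Myc did not differ beyond counting error, 5 of 10 ribosome and metabolism genes were also higher in cycling barcodes of Cre plus and 2 of 8 in those of Cre minus. Of the 8 genes 3 were higher and 1 lower in Cre plus, beside 27% of genes either way (10.8% higher and 16.2% lower), and in Cre minus 1 of 6 was higher and 1 lower, beside 47.6% (21.4% and 26.2%). Ccnd1, the main D cyclin there, was at 0.26 [0.16, 0.37] and 0.46 [0.34, 0.58]. Ccnd2 disagreed between the libraries, at 1.05 [0.53, 1.57] in Cre plus and −1.64 [−2.54, −0.84] in Cre minus. A single Cre plus barcode held 51 of its 139 UMIs, and without that barcode the Cre plus ratio was 0.04.

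In melanoma barcodes Cdkn1a and Cdkn1b were lower in cycling than in other barcodes. Cdkn1b had 115 CPM in cycling against 179 CPM in other barcodes of Cre plus (−0.65 [−0.74, −0.55]) and 125 against 153 CPM in Cre minus (−0.30 [−0.37, −0.22]), and Cdkn1a was at −0.32 [−0.40, −0.24] and −0.43 [−0.49, −0.37]. Ccnd2 was at −0.57 [−0.64, −0.49] and −0.42 [−0.47, −0.37]. Past 1.5-fold were Cdkn2c (higher) and Cdkn1b (lower) in Cre plus, 2 of 7 beside 18.4% of genes (12.6% higher and 5.74% lower), and Cdkn2c in Cre minus, 1 of 7 beside 15.5% (12% and 3.41%).

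In macrophage barcodes, 16 cycling in Cre plus and 19 in Cre minus, 6 of the 6 genes with enough UMIs were past 1.5-fold in each library, 3 higher and 3 lower, beside 21.9% of genes in Cre plus (8.93% higher, 13% lower) and 34.7% in Cre minus (20.4% higher, 14.2% lower). Cdkn1a was lower in cycling barcodes of both libraries (−0.79 [−1.09, −0.49] and −0.71 [−0.98, −0.43]), as was Cdkn1b (−1.16 [−1.78, −0.59] and −0.61 [−1.06, −0.18]), while Ccnd1 was higher (0.60 [0.25, 0.95] and 1.27 [0.91, 1.64]). Myc was higher in cycling barcodes of Cre plus (0.81), and in Cre minus it had 34 UMIs, under the minimum of 50. Without the barcode richest in the gene, Ccnd1 was at 0.17 and Myc at 0.45 in Cre plus, and Cdkn1a at −0.22 in Cre minus. Ccnd2 and Ccnd3 took opposite signs in the libraries. These barcodes carried lymphatic and melanoma markers at the levels given above, whose part was not tested.

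**Figure D5:**
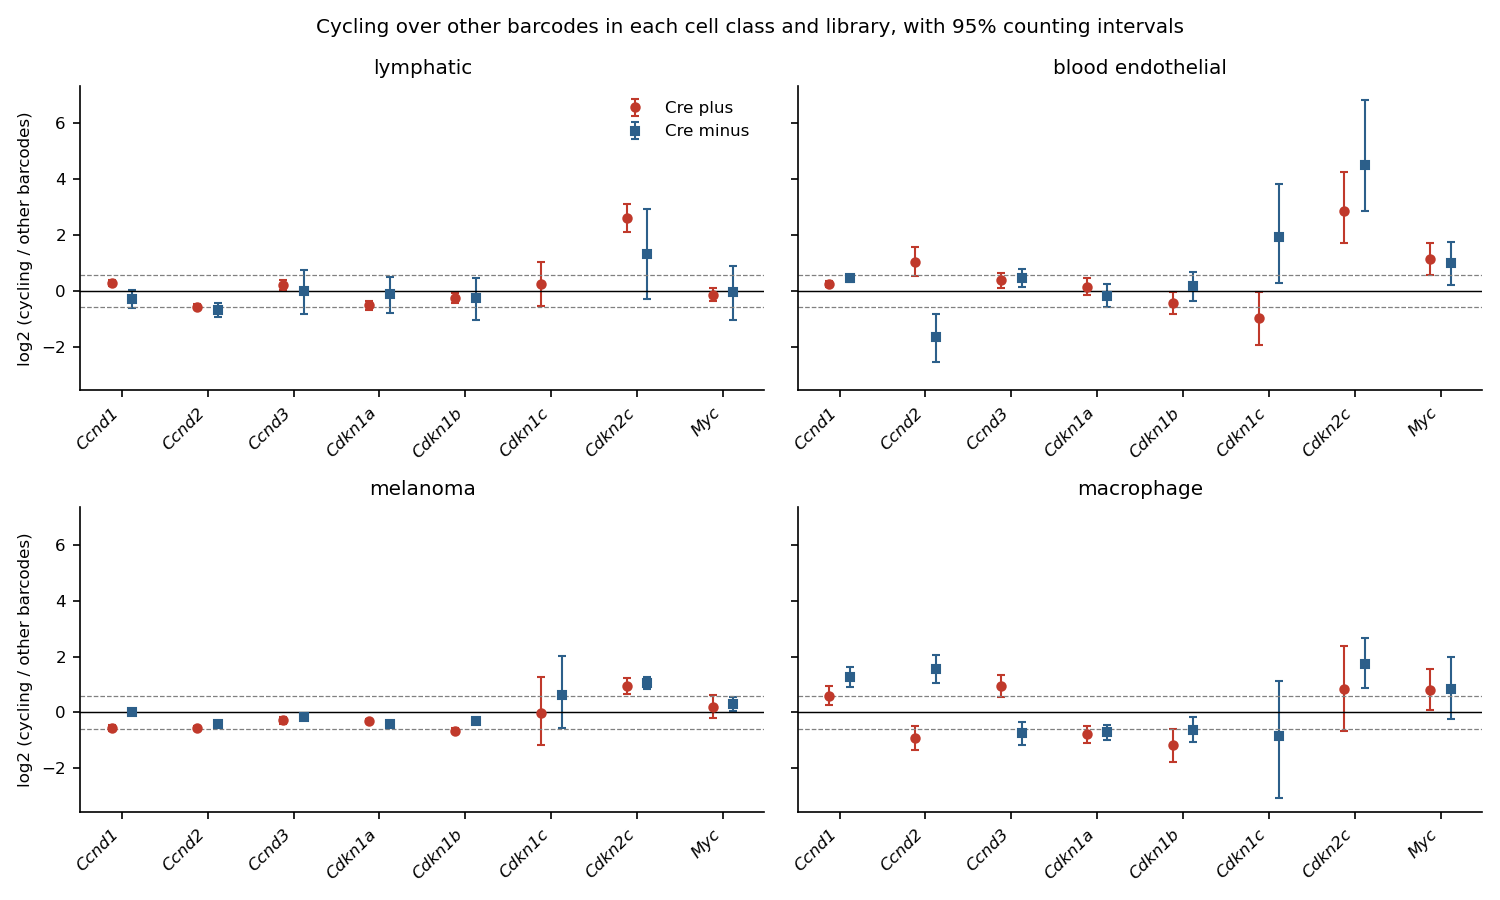
Log2 ratio of cycling over other barcodes for the 8 genes in each class, Cre plus as red circles and Cre minus as blue squares, with 95% counting intervals and dashed lines at 1.5-fold; genes with under 10 UMIs are not drawn. Cdkn2c is above 0 in all 8 sets, from 0.84 to 4.51, and Myc is above 1.5-fold in blood endothelial barcodes (1.14 and 0.99).

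Genes with the pattern most like each member were ranked by Pearson's r of log2(CPM + 1) over the 8 sums of 4 classes and 2 libraries, among 12703 genes. The sums of 1 library share its preparation and depth, so r is a description. It leaves out how large the differences are, and the nearest genes have a high r by selection. Ccnd1 was nearest to Igfbp3, which encodes a secreted binding protein of insulin-like growth factors (r = 0.995), with 15.5 and 25.3 CPM of Igfbp3 in Cre plus and Cre minus lymphatic and 2320 and 3315 CPM in blood endothelial barcodes. Gm13387 and the collagen gene Col13a1 followed. Ccnd2 was nearest to the ribosomal protein gene Rpl12 (r = 0.979), Zmym3 and 3110083C13Rik, and Ccnd3 to Tmem185b (r = 0.986), Snx15 and P2ry2. Rpl12 ran only from 1175 CPM in Cre plus blood endothelial to 2258 CPM in Cre minus lymphatic barcodes, where Ccnd2 had 30.5 and 433 CPM.

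Cdkn1a was nearest to Coa5 (r = 0.996), Piwil2 and Mkrn1, and Cdkn1b to the splicing factor gene Sf3b1 (r = 0.991), 1700007L15Rik and Mrpl22. For Cdkn1c the nearest were Dennd5a (r = 0.962), Rab1b and Rnd1, for Cdkn2c Dpm2 (r = 0.976), Gm42937 and Etfdh, and for Myc Zfp943 (r = 0.978), Dpy19l1 and Fam189a2. None of these genes is in the cell cycle lists. All lists together hold 77 genes, a small part of the genes ranked. Their absence among so few nearest genes therefore says nothing about the members.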

How the data were processed

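The authors deposited UMI counts per gene and barcode, whole numbers that were not normalized. Cell Ranger 7.0.0 and mm10 are credited to the submitters' processing notes. The annotation behind the counts, and any use of strand, was not given in the sources used here. Partner genes on the opposite strand overlap Ccnd1, Ccnd2, Ccnd3, Cdkn1a and Cdkn1c. Whether reads of such partners were kept apart by strand was not checked. The partner of Cdkn1a has no counts of its own, unlike the others. Positions come from GENCODE M21.

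The 8 genes, the gene lists and the comparisons were chosen with earlier results of these data known. The filter kept barcodes with 500 genes or more and mitochondrial UMIs under 10%, 1782 in Cre plus and 1552 in Cre minus. Of these 218 (12.2%) and 143 (9.21%) fell in no class, and 30 and 19 were pericyte and fibroblast and 9 and 11 T and NK barcodes. Scrublet (scanpy 1.11.5) marked 3 and 3 barcodes (0.168% and 0.193%), read as not having worked, so mixed barcodes stayed in. Of the lymphatic barcodes 943 lay in lymphatic Leiden clusters, 3 in blood endothelial and 1 in macrophage ones, and of the blood endothelial barcodes 425 lay in their own, 2 in lymphatic and 1 in melanoma clusters.

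Sums of counts over a class in 1 library were turned into CPM. Poisson, Clopper-Pearson and conditional binomial intervals (scipy 1.17.1) are exact 95% intervals, and PCR or capture bias is outside them. All members are named, and other list genes only when past 1.5-fold with at least 50 UMIs and an interval off 0, up to 4 per list, except Cdkn2a, Cdkn2b, Cdkn2d and Mycn, given after their levels were seen. Thinned shares are means over 20 draws, used because single draws varied, and thinned ratios come from 1 draw. Alternatives covered barcode filters, gates, clusters, scaling, thinning, Malat1 content, cycling barcodes and the UMI minimum.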

Additional observations from a re-analysis of the deposited data

Results flagged for a closer look

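Cdkn2c had opposite genotype ratios in different classes, with a log2 ratio of Cre plus over Cre minus of 0.88 in lymphatic and −1.74 in macrophage barcodes. Ccnd2 had opposite cycling ratios in the libraries, at 1.05 in Cre plus and −1.64 in Cre minus among blood endothelial barcodes, and at −0.92 in Cre plus and 1.56 in Cre minus among macrophage barcodes. Ccnd3 was at 0.93 in Cre plus and −0.75 in Cre minus among macrophage barcodes. None of these differences was tested, since each rests on 1 library per genotype.

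Outside the 4 classes, some members had a higher CPM than in any of them in both libraries, from few UMIs. In the 9 T and NK barcodes of Cre plus, and the 11 of Cre minus, Ccnd3 was at 154 and 166 CPM from 31 and 41 UMIs. Myc was at 64.6 CPM [34.4, 110] in Cre plus against 32.3 CPM [14.0, 63.7] in Cre minus from 13 and 8 UMIs, intervals that include its lymphatic level of 37.5 and 25.3 CPM. For Ccnd3 in Cre plus the interval likewise includes the blood endothelial level of 115 CPM. The 30 pericyte and fibroblast barcodes of Cre plus, and the 19 of Cre minus, had Cdkn2c at 39.6 and 58.6 CPM from 56 and 31 UMIs, and 15 and 9 of them were cycling.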

How the results depend on the processing

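No paired analysis was possible because each genotype has 1 library. The ratios of Ccnd1 and Ccnd2 between lymphatic and blood endothelial barcodes kept their direction and stayed past 1.5-fold under all 15 alternatives in both libraries. Of these, the minimums of 10 and 200 UMIs keep the same barcodes and could not change the ratio of a single gene. Leaving out Scrublet calls removed at most 3 barcodes per library. In Cre plus, Ccnd2 moved to 3.97 with a gate of over 80%, 3.89 as a mean over barcodes, 4.04 thinned, 4.12 in Malat1-poor barcodes and 3.96 without cycling barcodes, and Ccnd1 to −1.88 as a mean over barcodes. In Cre minus, Ccnd2 moved to 3.37 as a mean over barcodes, 3.04 thinned and 3.20 in Malat1-poor barcodes, and Ccnd1 to −2.28 in Malat1-rich, −2.03 in Malat1-poor and −1.51 without cycling barcodes. The median over the 8 genes, lymphatic over blood endothelial, moved to 0.43 in Cre plus with a minimum of 200 UMIs and to −1.33 in Cre minus in Malat1-poor barcodes. The median genotype ratio moved to −0.034 thinned and −0.64 in Malat1-poor blood endothelial barcodes, to 0.13 in melanoma barcodes without cycling ones, and in macrophage barcodes to −0.18 with the gate over 80% and 0.40 thinned. Without cycling barcodes the Cdkn2c genotype ratio in lymphatic barcodes changed sign, to −0.34 with an interval that includes 0. Its lymphatic over blood endothelial ratio in Cre minus changed sign to 1.94, from 8 lymphatic and 3 blood endothelial UMIs. Over all barcodes that ratio had an interval that includes 0. Cdkn1c over the endothelial classes changed sign to 0.54 in Malat1-poor barcodes of Cre plus, from few UMIs and with an interval that includes 0. The cause was not tested. The Ccnd2 genotype ratio in lymphatic barcodes was below 0 in all 16 alternatives, from −0.92 to −0.22, and past 1.5-fold in 13, counts that again include the UMI minimums. Values without the barcode richest in a gene, for cycling in deep barcodes and for cycling in Malat1-rich barcodes were added after seeing the data. Depth limits Cdkn1c in every class, and Cdkn2c and Myc in Cre minus lymphatic and both macrophage sets.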
